A study of Mus musculus with 12 samples.

Results

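Expression of 10 genes was described. They were the ligands Il6, Lif, Il11, Il33 and Il1b and the receptor chains Il1r1, Il1r2, Il1rl1, Osmr and Il6st. They were found by symbol among the 27998 genes of 12 single-cell libraries from mouse mammary gland, and all 10 were present in every library. Each library was 1 group with no replicate, made from the 4th mammary glands of C57BL/6J females of 43 weeks, and how many mice entered a library was not stated. The question put to these genes was in which fibroblasts and immune cells they were expressed, and how they differed with estrogen and progesterone.

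All groups except Intact had received 4-vinylcyclohexene diepoxide (VCD), which destroys ovarian follicles, at 160 mg/kg/day for 15 days. The VCD_Vehicle, VCD_E2 and VCD_E2_P4 groups were then given sesame oil, 17β-estradiol (E2, 1 µg per animal per day for 1 week) or E2 with progesterone (P4, 1 mg per animal per day). The same 3 hormone states were repeated under polybrominated diphenyl ethers (PBDE), flame retardants given with food. VCD_Low_PBDE, VCD_Low_E2 and VCD_Low_E2_P4 had the low level for 20 weeks (PBDE-47 at 0.05, PBDE-100 at 0.0028 and PBDE-153 at 0.0063 mg/kg/day), and VCD_High_PBDE, VCD_High_PBDE_E2 and VCD_High_PBDE_E2_P4 had the high level for 1 week (1, 0.056 and 0.126 mg/kg/day), so that level and duration cannot be told apart. VCD_E2_ICI had E2 and 5 mg of the estrogen receptor antagonist ICI, and VCD_Vehicle_NormEnv was a vehicle group whose cages may have carried PBDE. The hormone comparisons used the 9 libraries of the hormone by PBDE layout (3 without hormone, 3 with E2, 3 with E2 and P4), and the PBDE level stood in for replication. Intact, VCD_E2_ICI and VCD_Vehicle_NormEnv entered the comparisons between gates, which used all 12 libraries, and are otherwise given as values. VCD_Vehicle_NormEnv was also added to the hormone fits as an alternative.

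Of 58620 barcodes, 46257 passed the filters. Over all barcodes, before the filters, libraries held between 41737881 and 109224969 UMIs (median 62355232). Of the 45975 distinct barcodes that passed, 274 (0.596%) occurred in more than 1 library, at most 15 in a pair. A tag in the names of the deposited tables divides the libraries into a set of 5 and a set of 7. What it marks was not given. The hormone calls are therefore also given within each set, as the log2 ratio of the mean CPM of each side with 1 added. Of the layout, the first set held VCD_Vehicle, VCD_Low_PBDE, VCD_E2 and VCD_E2_P4, so that E2 and E2 with P4 were 1 library each. The second set held the other libraries of the layout, with VCD_High_PBDE alone without hormone. A side of 1 library has no spread, so these ratios do not replicate the calls. Fibroblasts (31334 cells) were read in 4 gates named by their markers, with 22225 cells in exactly 1 gate. These were the Dpp4 Pi16 gate (11524 cells), the Fabp4 gate (6036), the Gdf10 F3 gate (2384) and the Tnc gate (2281). Pi16 was at 4068 UMIs per 1000000 UMIs of the gate (CPM) in the Dpp4 Pi16 gate and at 42.1 to 146 in the others. Pi16 helps to open that gate, so this difference follows from the gating and does not test the names. The immune genes Coro1a and Laptm5 summed to at most 9.85 CPM in any fibroblast gate of the 9 libraries. In the macrophage, monocyte, dendritic cell and T cell gates they summed to at least 1102 CPM, but they are among the genes that define immune cells here. Cells with Ptprc or Cd52 had been left out of the fibroblasts. Immune cells (6971) gave T cell (2507), macrophage (909), monocyte (757), natural killer (NK, 524), conventional dendritic cell (cDC, 473), type 2 innate lymphoid cell (ILC2, 425), B cell (315), neutrophil (256) and mast cell (49) gates. No member was a gate marker.

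Interleukin-1β and interleukin-33 belong to the interleukin-1 family. Interleukin-1β is cut from a precursor in activated myeloid cells and acts through IL1R1, whereas IL1R2 binds it without signalling and serves as a decoy. Interleukin-33 is held in the nucleus of stromal and barrier cells, is released on damage, and acts through ST2, the product of Il1rl1, on mast cells, ILC2 and regulatory T cells. Interleukin-6, leukemia inhibitory factor and interleukin-11 share the signal chain gp130, the product of Il6st, and oncostatin M uses gp130 with OSMR. All of these signals end on NF-κB or on STAT3.

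The promoters are shown because the fibroblast ligands and receptors described next had unlike levels in unlike gates. Sequences are from RefSeq on GRCm38.p6 and cover the 250 bases before a transcription start, with capitals for matches to the motifs searched on both strands. The motifs were NF-κB (GGANTTTCC, held by 1.07% of 32851 promoters of the same length), AP-1 (TGANTCA, 6.75%), C/EBP (TTNNGCAA, 9.56%), STAT (TTCNNNGAA, 7.02%) and CRE (TGACGTCA, 1.55%). A match is a string of letters and was not tested for binding. The 10 genes had 14 starts, of which 7 held no motif. Il6 (chr5:30012864-30013113, + strand) held 3, an NF-κB match 43 bases before the start, a C/EBP match 128 before and an AP-1 match 249 before. The first of the Il33 starts (chr19:29924863-29925112, + strand) held none, and the second (chr19:29945540-29945789, + strand) held a C/EBP match 85 bases before the start. The first Il1r1 start (chr1:40224830-40225079, + strand) held a C/EBP match 133 bases before it.
Il6: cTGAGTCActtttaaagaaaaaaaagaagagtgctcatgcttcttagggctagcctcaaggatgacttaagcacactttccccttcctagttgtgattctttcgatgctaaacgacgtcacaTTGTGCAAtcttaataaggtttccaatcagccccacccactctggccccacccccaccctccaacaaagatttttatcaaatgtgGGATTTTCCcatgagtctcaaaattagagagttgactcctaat
Il33, first start: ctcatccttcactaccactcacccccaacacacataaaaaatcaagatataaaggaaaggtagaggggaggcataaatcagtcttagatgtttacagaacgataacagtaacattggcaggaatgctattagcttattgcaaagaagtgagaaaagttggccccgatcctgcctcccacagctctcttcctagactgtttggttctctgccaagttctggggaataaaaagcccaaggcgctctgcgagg
Il33, second start: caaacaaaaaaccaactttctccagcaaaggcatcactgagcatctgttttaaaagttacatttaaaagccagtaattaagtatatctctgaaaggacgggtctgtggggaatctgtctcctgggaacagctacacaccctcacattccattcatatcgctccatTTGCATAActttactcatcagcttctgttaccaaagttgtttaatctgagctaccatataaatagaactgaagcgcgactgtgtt
Il1r1, first start: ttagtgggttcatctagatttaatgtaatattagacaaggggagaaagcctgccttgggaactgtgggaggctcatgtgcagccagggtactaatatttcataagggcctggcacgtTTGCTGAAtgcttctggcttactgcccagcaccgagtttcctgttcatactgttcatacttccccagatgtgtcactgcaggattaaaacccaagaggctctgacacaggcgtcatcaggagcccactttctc

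Of the members, 3 receptor genes lie near each other on the + strand of chromosome 1 in GRCm38. Il1r2 spans chr1:40074079-40125231, Il1r1 spans chr1:40225080-40317257 and Il1rl1 spans chr1:40429570-40465415. Their levels did not follow each other. Il1r2 was highest in neutrophils, Il1r1 was at 2.46 to 5.6 CPM in the immune gates other than mast cells, and Il1rl1 was highest in mast cells.

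Il33 and Il1r2 were both highest, among fibroblasts, in the Dpp4 Pi16 gate. Il33 was at 256 CPM (154 to 409.6 over the 12 libraries) in the Dpp4 Pi16 gate and at 82.4 (47.0 to 161) in the Gdf10 F3 gate, against 3.60 in the Fabp4 gate and 3.33 in the Tnc gate. An Il33 UMI was found in 67.5% of Dpp4 Pi16 cells and in 1.28% of T cells, which serve here as the background. With cells thinned to 5000 UMIs the shares were 49.8% and 1.27%, and 699 Dpp4 Pi16 cells and 1016 T cells were too shallow to be thinned. The median cell held 15355.5 to 23364 UMIs in the Dpp4 Pi16 gate and 4916 to 6271 in the T cell gate, depending on the library. Il33 was higher in the Dpp4 Pi16 gate than the mean of the log2 levels of the other gates by 4.80 (SE 0.16, adjusted p = 2.87e-26, edgeR's quasi-likelihood test with Benjamini-Hochberg adjustment and library as a block). The low Fabp4 and Tnc gates enter that mean, so 4.80 is not the distance to the Gdf10 F3 gate. The Gdf10 F3 gate was itself higher than the mean of its other gates by 2.62 (adjusted p = 2.24e-15, edgeR). In 11 of 12 libraries the Dpp4 Pi16 gate was above the Gdf10 F3 gate. In VCD_Low_E2_P4 it was at 154 CPM (exact 95% Poisson interval 150 to 159) and the Gdf10 F3 gate at 161 (148 to 174).

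The decoy receptor gene Il1r2 was at 189 CPM (101 to 339) in the Dpp4 Pi16 gate, at 63.0 in the Gdf10 F3 gate and at 25.5 and 25.1 in the Fabp4 and Tnc gates, whose ranges overlapped. It was higher in the Dpp4 Pi16 gate by 2.42 (SE 0.11, adjusted p = 6.33e-22, edgeR). The signalling receptor gene Il1r1 was instead lowest, among fibroblasts, in the Dpp4 Pi16 gate. It was at 128 CPM (86.0 to 177) in the Fabp4 gate, 118 in the Gdf10 F3 gate, 81.2 in the Tnc gate and 61.5 (46.5 to 70.6) in the Dpp4 Pi16 gate, so that every library of the Dpp4 Pi16 gate was below every library of the Fabp4 gate. Il1r1 was lower in the Dpp4 Pi16 gate by 0.77 on the log2 scale and higher in the Fabp4 and Gdf10 F3 gates by 0.61 in each, and in the Tnc gate it fell by 0.45. Both receptor genes were thus lower in the Tnc gate (log2 difference −1.47 for Il1r2) and higher in the Gdf10 F3 gate (0.41 for Il1r2, and 0.66 with the marker levels that open the gates doubled).

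Among fibroblasts Il6, Il6st, Osmr and Lif had their highest levels in the Gdf10 F3 gate. Il6 was at 346 CPM there (188 to 530.1), with a UMI in 53.6% of cells, against 93.0 in the Dpp4 Pi16 gate, 45.3 in the Tnc gate and 36.7 in the Fabp4 gate. The log2 difference was 2.85 (SE 0.16, adjusted p = 3.46e-18, edgeR), and the lowest library of the Gdf10 F3 gate (188) was above the highest of every other gate (179.5 in the Dpp4 Pi16 gate). Il6st, the shared signal chain, was at 328 CPM (290.0 to 393) in the Gdf10 F3 gate against 152 to 199 in the others (log2 difference 1.00, SE 0.05, adjusted p = 5.06e-20, edgeR). Osmr was at 136 CPM there against 84.2 to 109 (0.65), and its ranges overlapped between gates. Lif (7.49 CPM) was higher there by 1.10, although the other gates held only 2.34 to 4.05 CPM. Il11 was at 3.39 to 5.04 CPM in all 4 gates and was called in none of them.

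All 10 members passed the filter on low counts in the comparison between fibroblast gates. The Dpp4 Pi16 gate had 7 called (4 higher, 3 lower), where 68.8% of all 12266 genes tested were called. The Gdf10 F3 gate had 8 (7 higher) against 48.8%, the Fabp4 gate 5 (1 higher) against 57.3% and the Tnc gate 5 (all lower) against 52.1%. In the sums over many cells a large share of all genes differed between gates, so that the number of members called is not particular to them. Il1rl1 was higher in the Dpp4 Pi16 gate by 0.86 (adjusted p = 0.0138, edgeR) and by 1.35 with DESeq2, and without VCD_E2 the difference was 0.43 (adjusted p = 0.129). Il1b in the Dpp4 Pi16 gate (0.34, adjusted p = 0.0490, edgeR) was at 1.57 to 2.01 CPM in all 4 gates, so that it is read as background. Its call was lost without Intact (adjusted p = 0.0789), VCD_E2 (0.135), VCD_E2_P4 (0.0548), VCD_Low_PBDE (0.0630), VCD_Vehicle_NormEnv (0.0849), VCD_High_PBDE (0.101), VCD_High_PBDE_E2 (0.0840) or VCD_E2_ICI (0.0898), and with DESeq2 (0.0620) or doubled marker levels (0.210).

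**Figure D1:**
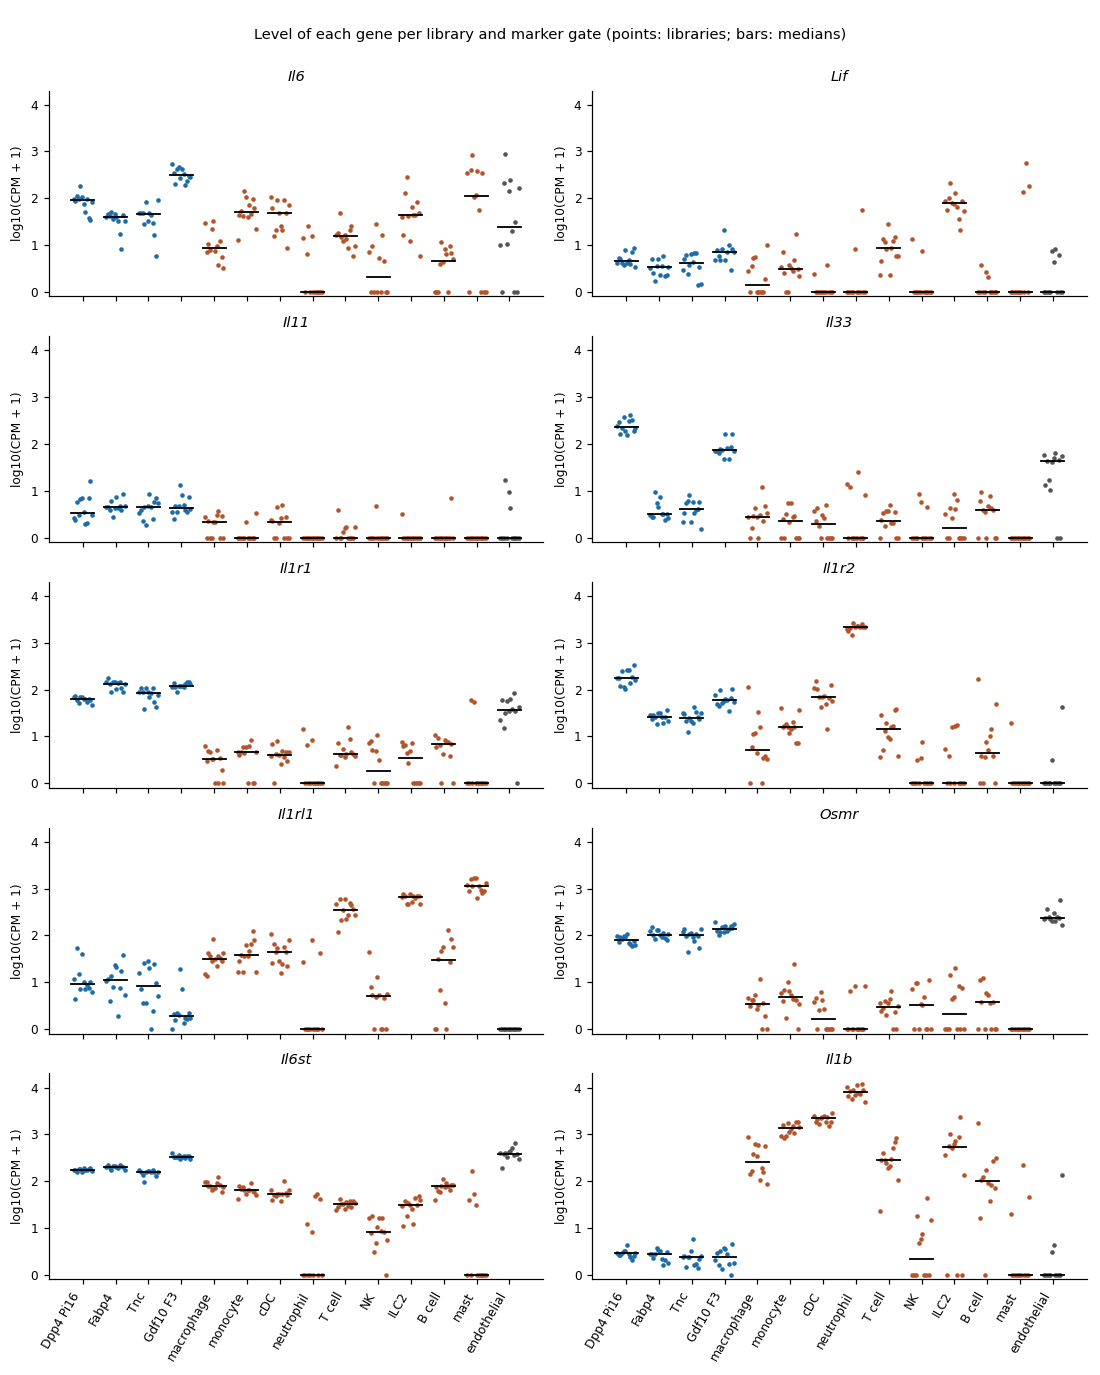
Level of each member as log10(CPM + 1) in each library (points) and gate, with the median over libraries as a bar, for fibroblast (blue), immune (orange) and endothelial (grey) gates. Il33 and Il1r2 are highest among fibroblasts in the Dpp4 Pi16 gate, Il6 and Il6st in the Gdf10 F3 gate, Il1b in neutrophils and Il1rl1 in mast cells, and points at 0 in small gates are libraries with no UMI.

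The pathway around the members was read from 4 lists of 69 other genes (67 in the tables). In the Gdf10 F3 gate, 29 of 53 tested rose and 3 fell, and 17 of 19 feedback and target genes of these signals rose with none lower, where 48.8% of all genes were called. Of 14 genes that respond to tissue dissociation (Fos, Jun, Egr1 and others), 8 were higher and 1 lower in this gate, and their part in these counts was not tested. Il11ra1 (0.95), Il31ra (2.48) and Cntfr (1.92), receptor chains of the interleukin-6 family, and Socs1 (0.96) and Cish (1.13), inhibitors of cytokine signals, were the 5 with the smallest adjusted p. The Dpp4 Pi16 gate had 26 higher and 20 lower, against 68.8% of all genes called, and 3 dissociation genes higher and 10 lower. Il18, another interleukin-1 family ligand, was higher by 3.79, Ptgs2, the inducible prostaglandin synthase, by 3.76, Irak3, an inhibitor of the interleukin-1 receptor complex, by 2.16 and Nfkb1 by 1.15, whereas Cntfr fell by 3.88. The Fabp4 gate had 11 higher and 23 lower (57.3% of all genes), with 10 dissociation genes higher and 3 lower. The Tnc gate had 8 and 28 (52.1%), with 4 dissociation genes higher and 4 lower. These lists were drawn up with results of these data known.

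The genes whose log2(CPM + 1) followed a member most closely over the 48 sums of library and fibroblast gate, among 9525 candidates, are given as a description, since the sums share libraries and gates. They were Sema3d, Scara3 and Serpina3c for Il33 (Pearson's r = 0.95, 0.95 and 0.94), Edem2, C1galt1 and Kcnk5 for Il1r2 (0.94, 0.93 and 0.92), Map3k5, Ntf3 and Tgoln1 for Il1r1 (0.92, 0.91 and 0.91) and Fth1, Ltbp4 and Nfib for Il6st (0.90 each). Csmd1, Rpl37 and Foxc1 followed Il6 (0.86, 0.84 and 0.84), Myc, Casp4 and Litaf followed Osmr (0.88, 0.83 and 0.82), and Ywhag, Calu and Ppp1r15b followed Il1rl1 (0.80, 0.80 and 0.77).

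Among immune cells Il1b was a myeloid gene. It was at 7719 CPM (5008 to 11852 over libraries) in neutrophils, 2090.0 (1474 to 2817) in cDC, 1229 (847 to 1877) in monocytes and 368 (86.0 to 885) in macrophages. The shares of cells with a UMI were 98.05%, 78.4%, 67.4% and 25.0%, against 1.91% of NK cells and 3.48% of Dpp4 Pi16 fibroblasts, with the neutrophil cells the shallowest (median 2256 to 3474.5 UMIs per library). Against the mean of the log2 levels of the other immune gates it was higher by 4.80 in neutrophils, 2.78 in cDC and 1.85 in monocytes (2.93 with doubled marker levels). It fell by 6.73 in NK cells. T cells (285 CPM) and ILC2 (592 CPM) carried it in few cells (8.62% and 8.47%), and 5 ILC2 held 41.8% of the Il1b UMIs of that gate. Doublets were not removed, and their part in these values was not tested.

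Il1r2 was at 2111 CPM (1454 to 2718) in neutrophils, in 96.1% of cells, and at 82.3 in cDC. Its log2 differences were 7.51 and 2.21, and it fell by 4.44 in NK cells. Il1b and its decoy receptor gene were therefore both highest in neutrophils, while Il1r1 was at 5.6 CPM or less in the immune gates other than mast cells. Il33 (at most 6.48 CPM), Osmr (at most 5.19) and Il11 (at most 1.06) were likewise near 0 there, and with Il1r1 these 4 did not pass the filter on low counts.

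Il1rl1, the interleukin-33 receptor gene, was at 1245 CPM in mast cells, 607 (462 to 781) in ILC2 and 361 (116 to 608) in T cells, and at 7.95 in NK cells. An Il1rl1 UMI was found in 95.9% of mast cells, 89.4% of ILC2 and 38.5% of T cells, against 2.29% of NK cells, which were about as deep (median 3470 to 6059 UMIs against 4916 to 6271 in T cells). The log2 differences were 4.24 in ILC2 and 2.99 in T cells, and it fell by 3.26 in NK cells (log2 difference −5.02 with doubled marker levels). The 49 mast cells were too few for a test. Il33 itself was in 0 of the mast cells, which allows a level of up to 13.8 CPM at the upper end of the exact Poisson interval.

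Within T cells Il1rl1 was found most often in cells with Foxp3, which marks regulatory T cells. It was found in 376 of 405 cells with a Foxp3 UMI (92.8%, exact 95% interval 89.9 to 95.2), in 35.1% of 669 cells with Cd4 and neither Foxp3 nor Cd8, and in 6.32% (4.59 to 8.44) of 665 cells with Cd8 and neither of the others. The remaining 768 T cells, in none of these subsets, had it in 40.8% (37.3 to 44.3). The levels were 861, 298, 43.4 and 310 CPM. Cells with a Foxp3 UMI were deeper (median 8215 UMIs against 5487, 5734 and 5159.5), and the order of the levels in CPM was the same as that of the shares. A cell without a Foxp3 UMI may still be a regulatory T cell. These intervals cover counting error only.

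**Figure D2:**
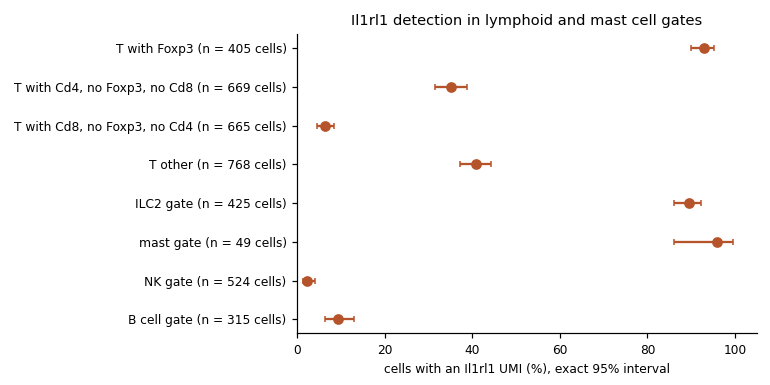
Share of cells with an Il1rl1 UMI, as a percentage with its exact 95% binomial interval, in T cell subsets set by Foxp3, Cd4 and Cd8 UMIs and in 4 other gates, pooled over libraries. T cells with Foxp3 (92.8%), ILC2 (89.4%) and mast cells (95.9%) lie together, and T cells with Cd8 (6.32%), NK cells (2.29%) and B cells lie near the left edge.

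Lif was highest in ILC2 (89.6 CPM, 31.1% of cells), against 10.9 CPM in T cells and at most 2.59 in the other tested immune gates, and the log2 difference was 5.72. Each of the 12 libraries had Lif in ILC2, from 20.4 to 207 CPM. Il6 was at 71.0 CPM in ILC2 (log2 difference 2.38), 61.4 in monocytes (1.97) and 47.5 in cDC (1.77), but 5 cells held 60.8% of the ILC2 UMIs of Il6. The mast cell gate, which was not tested, had a higher level. Of its 266755 UMIs, 53 were of Il6, in 16 of 49 cells, and 5 cells held 67.9% of them. Il6st was at 78.1 CPM in B cells, 75.9 in macrophages and 62.4 in monocytes, and at 8.83 in NK cells. It was higher by 1.59, 1.44 and 1.01 in the first 3 and fell by 2.28 in NK cells and by 2.33 in neutrophils.

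Of the 6 members tested between immune gates, cDC, NK and B cells had 5 called each, neutrophils and ILC2 4, monocytes 3 and macrophages and T cells 2. The shares of all 8477 tested genes called were 52.2% in cDC, 57% in NK cells, 63.1% in B cells, 60.7% in neutrophils, 43% in ILC2, 54.8% in monocytes, 64.1% in macrophages and 58.4% in T cells. The NK cell calls were all lower. In the pathway lists, macrophages had Ccl7 (5.82), Ccl2 (6.10), Cxcl1 (3.61), Lifr (4.09) and Il6ra (2.18) higher. ILC2 had Nfkb1 (2.60), Cish (3.49), Tnfaip3 (2.35), Jak2 (2.24) and Nfkbia (2.25) higher, and neutrophils had Il1rap, the co-receptor of IL1R1, higher by 4.45. NK cells and T cells had Il18r1 higher by 3.27 and 2.52. Of the 14 dissociation genes, 13 were higher in macrophages (median log2 difference 1.88) and 11 in ILC2 (0.72) with none lower, and in NK cells 12 were lower and 1 higher (−1.53). Their part in the values of these gates was not tested.

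A few calls between immune gates, all of genes that were lower, depended on 1 library. Il1rl1 in macrophages (log2 difference −0.71, adjusted p = 0.0209, edgeR) had an adjusted p of 0.0976 without Intact and 0.320 without VCD_Low_E2, and in neutrophils (−1.77, 0.0259) of 0.123 without VCD_E2 and 0.0693 without VCD_E2_ICI, and a value of −3.93 without VCD_Low_E2. In B cells it (−0.86, 0.0262) had 0.0532 without Intact, 0.0530 without VCD_E2_P4, 0.273 without VCD_Low_E2, 0.133 without VCD_Low_E2_P4 and 0.0823 without VCD_Vehicle_NormEnv. Il1r2 in B cells (−1.44, 0.0301) had 0.0712 without VCD_E2_P4, 0.0676 without VCD_Low_PBDE and 0.274 without VCD_Low_E2_P4. Lif in cDC (−3.15, 0.00553), with 2 UMIs in all, had 1.00 without VCD_Low_E2. With DESeq2 the adjusted p of Il1rl1 was 0.0762 in macrophages and 0.0873 in B cells. With doubled marker levels it was 0.220 in macrophages (−0.45) and 0.0654 in neutrophils, and its value in B cells was −1.80, and for Il6 in B cells it was 0.102.

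With hormone, Il1r1 was lower in the Fabp4 and Tnc gates and Il33 was lower in the Dpp4 Pi16 gate. The estrogen contrast was the mean of the E2 and the E2 with P4 libraries minus the libraries without hormone, fitted over 9 libraries with the PBDE level as a covariate and 4 residual degrees of freedom. Il1r1 in the Fabp4 gate was at 177, 143 and 147 CPM without hormone, in the order VCD_Vehicle, VCD_Low_PBDE and VCD_High_PBDE. With E2 it was at 132, 146 and 107 CPM, in the same order of PBDE, and with E2 and P4 at 86.9, 101 and 86.0. All E2 with P4 libraries were below all E2 libraries, as for 19.9% of all genes that did not overlap between these groups (progesterone contrast −0.50, adjusted p = 0.0698, edgeR), and VCD_Low_E2 alone reached the range without hormone. The log2 difference was −0.59 (SE 0.10, adjusted p = 0.00354, edgeR), and −0.33 (0.0219) with the marker levels that open the gates doubled. In the first tag set the means were 159.8 without and 109 with hormone. In the second, VCD_High_PBDE alone was without hormone, at 147, against a mean of 110.1 with hormone (log2 ratios −0.54 and −0.41). E2 alone against no hormone gave −0.33 (adjusted p = 0.130) and E2 with P4 gave −0.84 (0.00107).

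In the Tnc gate Il1r1 was at 108, 106 and 107 CPM without hormone, at 86.1, 86.5 and 54.2 with E2 and at 38.5, 69.0 and 41.6 with E2 and P4. The 3 libraries without hormone were above all 6 with hormone (log2 difference −0.89, SE 0.16, adjusted p = 0.00241, edgeR). The gate held fewer cells with hormone (68 to 167 per library) than in VCD_Vehicle (458) and VCD_Low_PBDE (314), though not than in VCD_High_PBDE (125), and with doubled marker levels the value was −0.45 (adjusted p = 0.0761). The log2 ratios within the tag sets were −0.77 and −0.76. E2 alone against no hormone gave −0.57 (adjusted p = 0.0777) and E2 with P4 gave −1.20 (0.00112). In the Dpp4 Pi16 and Gdf10 F3 gates Il1r1 differed by −0.12 and −0.07 (adjusted p = 0.433 and 0.836), and the ranges overlapped. Depth per cell also differed with hormone. By library, the median Tnc cell held 8883.5 to 10504 UMIs without hormone and 16666.5 to 28444 with it. The median Fabp4 cell held 14156.5 to 16732 and 16761 to 23044. In the Dpp4 Pi16 and Gdf10 F3 gates these medians overlapped. The part of depth in the lower CPM of the Fabp4 and Tnc gates was not tested.

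Osmr fell in the Fabp4 and Tnc gates too. In the Fabp4 gate it was at 153, 129.8 and 110.5 CPM without hormone, at 103, 131 and 84.9 with E2 and at 81.3, 102 and 77.0 with E2 and P4. The log2 difference was −0.52 (SE 0.10, adjusted p = 0.00840, edgeR), and VCD_Low_E2 lay within the range without hormone. With VCD_Vehicle_NormEnv (91.9 CPM) added to the libraries without hormone, the adjusted p was 0.0567. E2 alone gave −0.37 (adjusted p = 0.117) and E2 with P4 gave −0.67 (0.00438), and the log2 ratios within the tag sets were −0.62 and −0.16. In the Tnc gate it was at 139, 107 and 108 CPM without hormone, at 96.1, 111 and 94.9 with E2 and at 43.8, 90.1 and 52.4 with both (−0.67, adjusted p = 0.0183), and the adjusted p was 0.182 without VCD_Vehicle (log2 difference −0.40) and 0.0522 without VCD_High_PBDE. Here E2 alone against no hormone gave −0.30 (adjusted p = 0.393) and E2 with P4 gave −1.04 (0.00457). E2 with P4 against E2 did not pass the threshold (−0.73, SE 0.21, adjusted p = 0.121). The log2 ratios within the tag sets were −0.80 and −0.31.

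Il33 in the Dpp4 Pi16 gate was at 293, 383 and 409.6 CPM without hormone, at 164, 190.3 and 318 with E2 and at 222, 154 and 192 with E2 and P4. VCD_High_PBDE_E2 (318) was above VCD_Vehicle (293), so the ranges overlapped, and the other 5 hormone libraries were below all 3 without hormone. The log2 difference was −0.85 (SE 0.19, adjusted p = 0.0315, edgeR). Means were 338 without and 193 with hormone in the first tag set. In the second, VCD_High_PBDE alone was without hormone, at 409.6, against a mean of 214 with hormone. The tag as a covariate gave an adjusted p of 0.177, E2 alone against no hormone 0.0794 (log2 difference −0.79) and E2 with P4 0.0529 (−0.90), and the call was lost without VCD_Vehicle (0.0526), VCD_E2 (0.0571), VCD_Low_PBDE (0.174), VCD_Low_E2 (0.0813), VCD_Low_E2_P4 (0.0877), VCD_High_PBDE (0.0775) or VCD_High_PBDE_E2_P4 (0.0688).

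**Figure D3:**
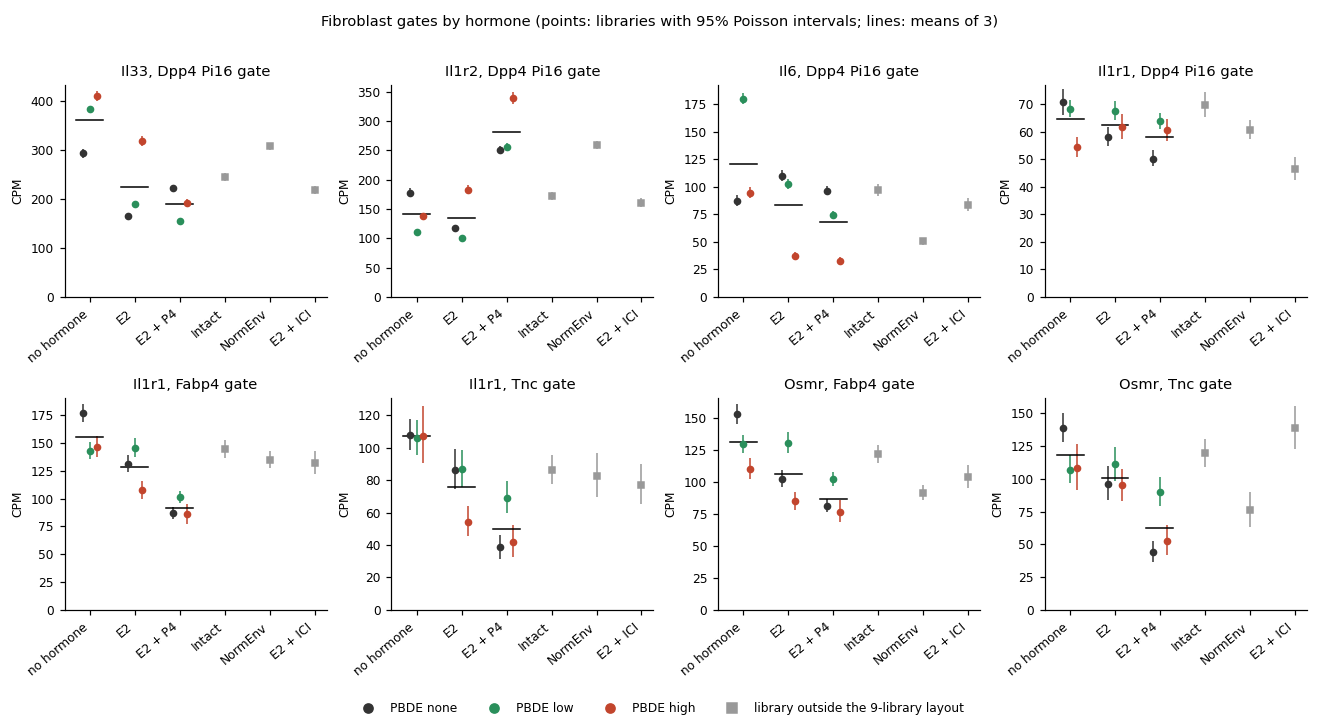
CPM in each library (points, with 95% Poisson intervals for counting error) for Il33, Il1r2, Il6 and Il1r1 in the Dpp4 Pi16 gate and Il1r1 and Osmr in the Fabp4 and Tnc gates, by hormone and coloured by PBDE level, with bars for the mean of 3. Grey squares are Intact, NormEnv and E2 with ICI. Il1r1 in the Tnc gate has no overlap between the 3 libraries without hormone (106 to 108) and the 6 with hormone (38.5 to 86.5).

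Calls were also made for Il1r2 and Lif in the Fabp4 gate. Il1r2 was at 22.4, 17.9 and 18.05 CPM without hormone and at 24.5 to 36.0 in the 6 hormone libraries (0.51, adjusted p = 0.0342, edgeR), with no overlap. The call was lost without VCD_E2 (0.0645), VCD_Low_PBDE (0.176), VCD_Low_E2 (0.0746), VCD_Low_E2_P4 (0.0681), VCD_High_PBDE (0.129) or VCD_High_PBDE_E2_P4 (0.0515), with the tag as a covariate (0.174) and with E2 alone against no hormone (0.143), and the log2 ratios within the tag sets were 0.39 and 0.72. Lif in the Fabp4 gate was at 4.13, 2.63 and 4.80 CPM without hormone and at 0.740 to 4.04 with it (−1.38, adjusted p = 0.0354). Leaving out VCD_Vehicle (0.183), VCD_E2 (0.0778), VCD_E2_P4 (0.0941), VCD_Low_E2_P4 (0.0659), VCD_High_PBDE (0.144), VCD_High_PBDE_E2 (0.0661) or VCD_High_PBDE_E2_P4 (0.0622) ended it, as did doubled marker levels (0.0732), a mitochondrial limit of 10% (0.0560) and E2 alone (−0.84, 0.310, against −1.92 and 0.0186 for E2 with P4). The log2 ratios within the tag sets were −1.02 and −0.97.

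In the Tnc gate Il6 was at 47.8, 83.2 and 28.4 CPM without hormone and at 4.82 to 47.6 with it (−0.94, adjusted p = 0.0200, edgeR), with overlap. The adjusted p was 0.134 with the tag as a covariate (log2 ratios within the tag sets −0.81 and −0.19), 0.106 with doubled marker levels, 0.138 with E2 alone, 0.0550 without VCD_E2_P4, 0.141 without VCD_Low_PBDE and 0.0590 without VCD_High_PBDE. Il1r2 there fell by 0.62 on the log2 scale (adjusted p = 0.0227), from 28.9, 23.4 and 32.1 CPM to between 11.3 and 25.3, and the adjusted p was 0.212 without VCD_Vehicle, 0.0520 without VCD_E2_P4, 0.118 with DESeq2 and 0.199 with E2 alone. With doubled marker levels the value was −0.15 (adjusted p = 0.692), and the log2 ratios within the tag sets were −0.69 and −0.55. Il1rl1 in the Tnc gate rose by 2.10 (adjusted p = 0.0331), from 6.22, 2.51 and 1.46 CPM to 2.61 to 27.1, but 5 cells held 35.6% of its UMIs, and without VCD_Vehicle the value was 3.17. Its call was lost without VCD_E2_P4 (0.137), VCD_Low_PBDE (0.176), VCD_Low_E2 (0.0880) or VCD_High_PBDE (0.0826), and with DESeq2 (0.0592), the tag as a covariate (1.61, 0.173), doubled marker levels (0.93, 0.0773) or E2 alone (0.0928). The log2 ratios within the tag sets were 1.47 and 3.05.

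In the estrogen contrast all 10 members were tested in the Dpp4 Pi16 and Fabp4 gates and 9 in the Tnc and Gdf10 F3 gates. The Dpp4 Pi16 gate had 1 called, against 11.5% of all genes, the Fabp4 gate 4 (1 higher) against 16.8% and the Tnc gate 5 (1 higher) against 25.6%. The Gdf10 F3 gate, where Il6 and Il6st were highest, had 0 called by edgeR against 1.47% of all genes, 3 of 9 at an unadjusted p under 0.05 against 17.7%, and 0 by DESeq2. Il6 there was at 188 to 471 CPM without hormone and 199.8 to 425 with it. Groups that did not overlap between the 3 and the 6 libraries were found for 2 members in the Fabp4 gate (Il1r2 and Il6st) against 15.7% of all genes, and for 1 in the Tnc gate (Il1r1) against 23.1%. There were 0 in the Dpp4 Pi16 gate (13.7%) and in the Gdf10 F3 gate (8.39%).

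Genes that respond to tissue dissociation moved with hormone in the fibroblast gates, also where no member was called. Of the 14 genes, 12 were lower and 1 higher in the Fabp4 gate, with a summed level of 27083 to 37867 CPM without hormone, 19486 to 25293 with E2 and 15637 to 17350 with both. In the Tnc gate 13 were lower, with 23749.5 to 28342, 13238 to 18644 and 9465 to 10787 CPM. In the Dpp4 Pi16 gate 1 was lower (12098 to 13119, 12838 to 13546 and 10662 to 11720 CPM), and in the Gdf10 F3 gate 2 were lower (20380 to 24380, 16866 to 19519 and 15807 to 16570 CPM, with no overlap between hormone states). Between E2 and E2 with P4 the sums did not overlap in any of the 4 gates. Their part in the lower Il1r1, Osmr, Il6 and Lif was not tested.

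The pathway lists differed by gate as well. In the Tnc gate 18 of 49 genes were lower and 3 higher (median −0.40 on the log2 scale), where 25.6% of all genes were called (median −0.017), among them Myd88, the adaptor of the interleukin-1 and interleukin-33 receptors (−1.35), Icam1 (−1.76), Il6ra (−1.62) and Socs3, the feedback inhibitor of gp130 (−1.57), while Timp1 rose by 1.89. In the Fabp4 gate 8 of 52 were lower, with Socs3 (−0.78), Irak3 (−0.70), Icam1 (−0.76), Il6ra (−0.87) and Stat3 (−0.43), and 7 were higher, against 16.8% of all genes called. The Dpp4 Pi16 gate had 11 of 51 higher and 3 lower, against 11.5%. Il18bp, which binds and blocks interleukin-18, was higher by 1.07, Ccl7 by 0.76, Pycard by 0.64 and Il18 by 0.46. The Gdf10 F3 gate had 2 of 48 higher, Timp1 (0.89) and Cxcl2 (2.17), and none lower, against 1.47%.

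**Figure D4:**
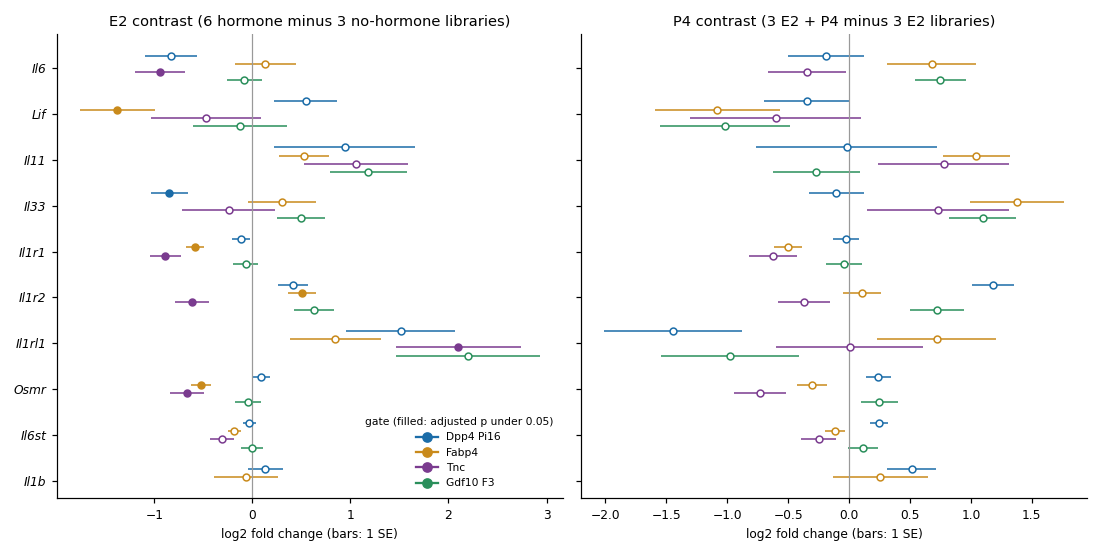
log2 fold change of each member (points) with 1 SE (bars) for the estrogen contrast at left and the progesterone contrast at right in the 4 fibroblast gates, where filled points have an adjusted p under 0.05. The 10 filled points are all in the estrogen panel, 1 in the Dpp4 Pi16 gate, 4 in the Fabp4 gate and 5 in the Tnc gate.

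The difference between gates was itself tested as the estrogen effect in the Dpp4 Pi16 gate minus the mean effect in the other 3. Of the 10 members 4 were called, against 15% of 12608 genes. Il33 was lower by 1.08 in the Dpp4 Pi16 gate relative to the others (adjusted p = 0.0362), whereas Il1r1 (0.39, 0.0353), Osmr (0.49, 0.0357) and Lif (1.15, 0.0343) were higher relative to them (edgeR). These calls were close to the threshold. Of the 9 libraries, leaving out any of 7 ended the call for Il33 and for Il1r1, any of 6 for Osmr and any of 4 for Lif. Leaving out VCD_Vehicle gave 0.100 for Il33, 0.120 for Il1r1, 0.400 for Osmr and 0.0675 for Lif, and VCD_High_PBDE gave 0.129, 0.148, 0.0835 and 0.337. The difference itself was 0.24 for Osmr without VCD_Vehicle, and 0.25 for Il1r1 and 0.55 for Lif without VCD_High_PBDE, whereas for Il33 it was −0.92 to −1.37 where its call was lost. Leaving out VCD_High_PBDE_E2_P4 gave 0.0682, 0.0975, 0.105 and 0.0880. With doubled marker levels the difference was 0.096 for Il1r1 (adjusted p = 0.625) and 0.69 for Lif (0.152). DESeq2 gave 0.0684 for Lif and 0.0513 for Osmr.

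The same calls were also lost for Il33 without VCD_E2 (0.0967), VCD_Low_PBDE (0.0911), VCD_Low_E2_P4 (0.0515) or VCD_High_PBDE_E2 (0.0682). For Il1r1 this held without VCD_E2_P4 (0.112), VCD_Low_PBDE (0.0529), VCD_Low_E2 (0.0865) or VCD_High_PBDE_E2 (0.0650), for Osmr without VCD_E2 (0.115), VCD_E2_P4 (0.0737) or VCD_Low_E2 (0.0717), and for Lif without VCD_E2_P4 (0.0894). Of the 14 dissociation genes, 9 were higher in this test and 1 lower, and their part in it was not tested.

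Progesterone was compared as E2 with P4 minus E2. In the Dpp4 Pi16 gate Il1r2 was at 178, 111 and 138 CPM without hormone, at 118, 101 and 183 with E2 and at 250.0, 256 and 339 with E2 and P4. The 3 libraries with P4 were above all 6 others (17% of all genes did not overlap between E2 and E2 with P4). Within tag sets the log2 ratio was 1.08 in the first, from VCD_E2_P4 against VCD_E2 alone, and 1.06 in the second. The log2 difference over all 6 libraries with hormone was 1.18 (SE 0.17, adjusted p = 0.0925, edgeR). It did not pass the threshold in edgeR and did in DESeq2 (adjusted p = 7.19e-09). VCD_Vehicle_NormEnv, without hormone, was at 258 CPM (251 to 266), as high as VCD_E2_P4. No member was called by edgeR in the 4 fibroblast gates (0 of 10, 10, 9 and 9), where 0.0385% (Dpp4 Pi16), 1.07% (Fabp4), 1.65% (Tnc) and 0.0093% (Gdf10 F3) of all genes were. At an unadjusted p under 0.05 there were 5, 4, 2 and 3 members, against 9.47%, 17.6%, 14.6% and 8.27% of all genes, and DESeq2 called 1, 1, 0 and 1. In the Gdf10 F3 gate Il33 was at 160.7 and 160.4 CPM in VCD_Low_E2_P4 and VCD_High_PBDE_E2_P4 and at 77.9 in VCD_E2_P4, against 47.0 to 85.8 with E2 (1.10, adjusted p = 0.268).

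In macrophages Il1b rose with progesterone. It was at 159.8, 339 and 158 CPM with E2 and at 387, 583 and 573 with E2 and P4, with no overlap (as for 14.3% of all genes), and at 139, 620.0 and 190.1 without hormone, which spans both. The log2 difference was 1.39 (SE 0.24, adjusted p = 0.0125, edgeR). Within tag sets the log2 ratio was 1.27 in the first, from VCD_E2_P4 against VCD_E2 alone, and 1.21 in the second. A UMI was found in 26.5%, 25.7% and 13.5% of macrophages with E2 and in 24.1%, 41.6% and 30.2% with both, so that the level moved more than the share of cells in the libraries without PBDE. These sums came from 74 to 116 cells per library. Over all libraries the macrophage gate held 4043 Il1b UMIs, of which 5 of 909 cells held 20.3% and the cell with most held 197. How far few cells set the level of a library was not tested. Neutrophil markers in the macrophage gate were at 22.0 to 25.2 CPM with E2 and 22.0 to 158 with both, and the summed dissociation genes at 16366 to 18393 CPM with E2 and 14278 to 16329 with both. The part of either in the result was not tested. The call was lost without VCD_E2_P4 (0.106), VCD_Low_E2 (0.0687) or VCD_High_PBDE_E2_P4 (0.110), with doubled marker levels (0.0693) and with a mitochondrial limit of 10% (0.196). The 1 called of 5 tested stands against 0.375% of all genes.

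Il1rl1 in T cells was at 608, 592 and 439 CPM with E2 and at 209, 222 and 360.2 with E2 and P4, with no overlap (as for 19.1% of all genes), and at 116, 345 and 483 without hormone (progesterone contrast −1.19, adjusted p = 0.213, edgeR). The summed dissociation genes in T cells were at 7307 to 8748 CPM with E2, 5147 to 5553 with both and 5543 to 10558 without hormone (median log2 difference with progesterone −0.58, 0 of 14 called), and their part in the result was not tested. Since Il1rl1 differed between T cells with and without Foxp3, the subsets were then read separately, after these values had been seen and with no test. In cells with a Foxp3 UMI it was at 898, 1278 and 1155 CPM with E2, at 658, 703 and 623 with both and at 677, 775 and 785 without hormone. In T cells with no Foxp3 UMI it was at 359, 438 and 344 with E2, at 117, 126 and 233 with both and at 83.8, 197 and 258 without hormone. In each subset the 3 E2 libraries were above the other 6 of the layout. How many of all genes had this pattern in these subsets was not counted. Outside the layout, cells with a Foxp3 UMI were at 1281 CPM in Intact, which was given no hormone. They were at 699 in VCD_E2_ICI and 801 in VCD_Vehicle_NormEnv. Intact was thus as high as the highest E2 library. T cells with no Foxp3 UMI were at 193, 154 and 111 CPM in these libraries. The share of T cells with a Foxp3 UMI was 36.2%, 14.3% and 13.8% with E2, 11.0%, 15% and 23.5% with both and 3.61%, 17.4% and 29.5% without, and these ranges overlapped. VCD_Vehicle had 7 such cells and VCD_High_PBDE_E2 15, so the levels rest on few cells.

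**Figure D5:**
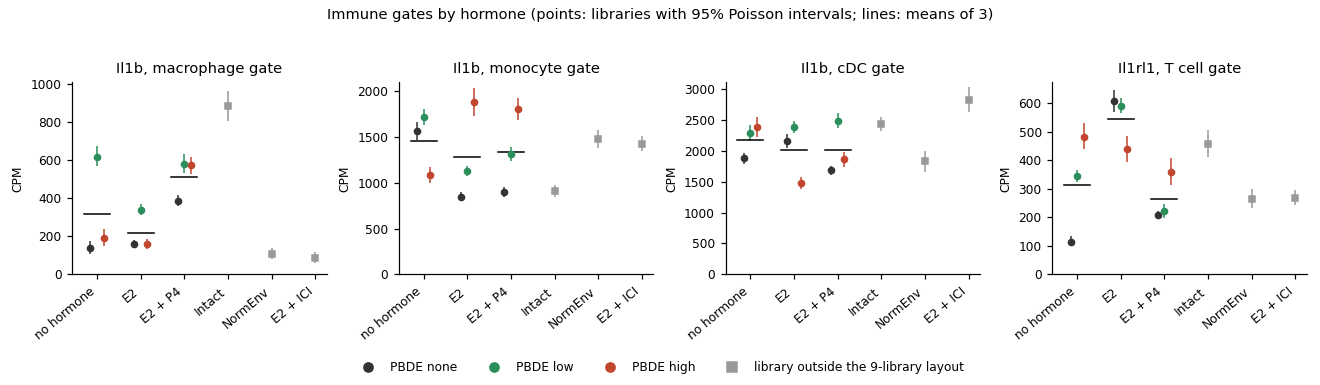
CPM in each library (points, with 95% Poisson intervals for counting error) for Il1b in the macrophage, monocyte and cDC gates and Il1rl1 in the T cell gate, by hormone and coloured by PBDE level, with bars for the mean of 3 and grey squares for Intact, NormEnv and E2 with ICI. Il1b in macrophages is between 387 and 583 in the 3 libraries with E2 and P4 and between 158 and 339 in the 3 with E2, while its monocyte and cDC levels overlap between hormones.

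In the estrogen contrast no member was called by edgeR in macrophages (0 of 5, against 0.7% of all genes), monocytes (0 of 5, 0.0528%), cDC (0 of 5, 0.097%) or T cells (0 of 6, 0.0217%). At an unadjusted p under 0.05 there were 1, 0, 1 and 0, against 12.2%, 5.98%, 8.19% and 4.61% of all genes, and DESeq2 called none. The member in cDC was Il6, at 59.3, 88.5 and 89.4 CPM without hormone, at 14.3, 48.1 and 46.9 with E2 and at 19.6, 24.6 and 7.76 with both. These groups did not overlap, as for 3.9% of all genes (log2 difference −1.57, SE 0.28, adjusted p = 0.101), and the sums came from 26 to 82 cells per library. For progesterone no member was called in monocytes (0%), cDC (0%) or T cells (0.0978%), with 2 of 5, 1 of 5 and 3 of 6 at an unadjusted p under 0.05, against 6.42%, 4.25% and 12.9% of all genes, and none by DESeq2. In the pathway lists Il18bp was higher by 2.31 in macrophages and Ccl2 by 1.42 in monocytes in the estrogen contrast.

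The libraries outside the layout are compared as values, with exact 95% Poisson intervals that cover counting error only. Il33 in the Dpp4 Pi16 gate was at 245 CPM (236 to 254) in Intact against 293 (284 to 303) in VCD_Vehicle and 307 (299 to 315) in VCD_Vehicle_NormEnv, and at 218 (209 to 228) in VCD_E2_ICI against 164 (159 to 170.4) in VCD_E2. The 2 vehicle libraries had the same hormone state, but they lie in different tag sets and VCD_Vehicle_NormEnv cages may have carried PBDE. These cannot be told apart in the gap between them. VCD_E2 and VCD_E2_ICI also lie in different tag sets. The gap between the vehicle libraries was small for Il33. Il1r2 in the Dpp4 Pi16 gate was at 178 CPM (170.4 to 185) in VCD_Vehicle and 258 (251 to 266) in VCD_Vehicle_NormEnv. Osmr in the Fabp4 gate was at 153 (146 to 161) and 91.9 (86.0 to 98.1). Il1r1 in the Fabp4 gate was at 145, 177, 135, 132 and 132 CPM in Intact, VCD_Vehicle, VCD_Vehicle_NormEnv, VCD_E2 and VCD_E2_ICI. Il6 in the Gdf10 F3 gate was highest in Intact, at 530.1 (503 to 558), against 353 in VCD_Vehicle. Il1b in macrophages was also highest in Intact, at 885 (809 to 965) from 43 cells, against 139 (108 to 176) in VCD_Vehicle and 86.0 (60.9 to 118) in VCD_E2_ICI.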

How the data were processed

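Single-cell 3′ RNA-seq (10x Chromium version 3) was made from dissociated glands freed of lymph nodes, larger cells and dead cells. The authors deposited raw UMI count matrices, 1 per library, from Cell Ranger 3.1.0 on mm10 per the labels' processing notes. Labels and methods name different sequencers. From these counts, barcodes under 500 genes or 1000 UMIs, or with over 5% of UMIs from mitochondrial genes, were dropped. No doublet caller was run. A cell with any UMI of Cspg4, Pecam1, Cd52, Ptprc, Krt14 or Epcam was not taken as a fibroblast. A gate opened at a set number of UMIs of its markers per 10000 UMIs (20 for Dpp4 Pi16, 40 for Fabp4, 10 for Tnc and Gdf10 F3). Cells lie near these levels (4264 to 10164 within a factor of 2), so gates are ranges and not types. The same holds for immune gates, counting immune cells of any gate. Near the monocyte (20) and ILC2 (20) levels lay 1916 and 1095 cells. Near the cDC (2) and NK (40) levels lay 765 and 661. In these gates this exceeds the cells in the gate. For macrophages (242), T cells (664), B cells (178), neutrophils (13) and mast cells (1) it was fewer.

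UMIs were summed per library and gate (at least 20 cells for hormone and 10 for gate comparisons) and tested in edgeR 4.0.16 (TMM, filterByExpr, quasi-likelihood, R 4.3.3) over all genes, with Benjamini-Hochberg adjustment and 0.05 as the threshold. Gate comparisons had library as a block and set a gate against the mean of the log2 levels of the other gates. Levels are UMIs of a gene per 1000000 UMIs of the gate (CPM). The fitting code was also run on simulated counts, and the outcome is not given here. Intervals are 95% and cover counting error only. UMIs per library ranged from 41737881 to 109224969, and sums over few cells are less precise.

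The members and lists were chosen with earlier results of these data known. All members are named, from the pathway lists at most 5 genes per comparison with the smallest adjusted p, and the 3 genes most like a member. Without separate animals per library, p-values measure the spread between these libraries only. The alternatives were DESeq2 1.42.0, no filter on low counts, library totals for scaling, doubled gate levels, a mitochondrial limit of 10%, the file tag as a covariate, VCD_Vehicle_NormEnv as a further library, and each library left out. E2 alone and E2 with P4, each against no hormone, were added after the data had been seen.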

Additional observations from a re-analysis of the deposited data

Results flagged for a closer look

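For 4 members the estrogen effect in the Dpp4 Pi16 gate differed from the mean effect in the other 3 fibroblast gates by a test of the difference itself. The log2 difference between effects was −1.08 for Il33, 0.39 for Il1r1, 0.49 for Osmr and 1.15 for Lif. Each of these was lost when any of several libraries was left out.

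Mast and endothelial cells entered no comparison. The mast cell gate (49 cells) had Il1rl1 at 1245 CPM. The endothelial gate (120 cells) had Osmr at 243 CPM, with a UMI in 70.0% of cells, and Il6st at 427 CPM, with a UMI in 86.7%.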

How the results depend on the processing

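No paired analysis was possible because the labels give 1 library per group and no replicate number to pair by. The PBDE level in the hormone fits, and the library in the comparisons between gates, were terms of the fits as reported. The 10 member calls of the estrogen contrast over 8 gates became 16 with no filter on low counts, 6 with the file tag as a covariate, 5 with doubled gate levels and 0 with E2 alone against no hormone, and ran from 4 to 11 with a library left out. The 1 progesterone call became 4 with DESeq2, 16 with no filter, 4 with doubled gate levels (Il1b in macrophages not among them) and 0 with a mitochondrial limit of 10%, and ran from 0 to 2. The 4 calls of the difference between gates became 2 with DESeq2 and 2 with doubled gate levels, and ran from 0 to 3. The 25 calls between fibroblast gates (24 to 26 with a library left out) and the 30 between immune gates (27 to 31) stayed within 1.5 times under every alternative run. No filter tests more genes, and doubled levels change which cells enter a gate. The cause of the changes in the counts was not tested. Over called members, 233 values under alternatives kept direction and threshold and 37 lost the threshold, and with a library left out 715 and 80 did, and none reversed. Most of these values belong to the comparisons between gates, and the hormone calls were less stable. Of the 9 libraries left out in turn, 7 ended the estrogen call of Il33 in the Dpp4 Pi16 gate. None ended that of Il1r1 in the Fabp4 gate, and 4 to 7 ended the calls of the difference between gates. Calls over all genes fell in the estrogen contrast with the tag as a covariate from 1500 to 175 in the Dpp4 Pi16 gate and from 2028 to 1009 in the Fabp4 gate. With a library left out they ran from 166 to 1626 in the Dpp4 Pi16 gate and from 1029 to 1728 in the Fabp4 gate. In the Tnc gate they ran from 1553 to 2707 and in the Gdf10 F3 gate from 19 to 376. The shares of all genes called in this contrast move with them. Depth limits the gates with few cells, with 22 in the smallest monocyte, 26 in the smallest cDC, 41 in the smallest macrophage and 68 in the smallest Tnc sum, and members of few UMIs.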

Other observations

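Outside fibroblasts and immune cells the members were read in few cells and with no test. In the endothelial gate (120 cells) Il33 was at 43.5 CPM, Il1r1 at 38.1 and Il6 at 132, while Il1rl1 had no UMI, which allows up to 1.80 CPM at the upper end of the exact 95% Poisson interval. In the luminal gate (164 cells) Osmr was at 69.2 CPM, Il6st at 80.9, Lif at 18.8 and Il33 at 13.1. Fibroblasts that opened none of the 4 gates (2003 cells) had Il1rl1 at 34.5 CPM, above the 4.16 to 14.8 of the gates, in 7.14% of cells.

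Il1rl1 in fibroblasts was held by few cells. In the Dpp4 Pi16 gate 777 of 11524 cells had a UMI, 71 of them held more than 50% of the UMIs, and the cell with most had 128. In the Gdf10 F3 gate 5 cells held 69.5% of its UMIs. By library the Dpp4 Pi16 gate had Il1rl1 at 53.5 CPM in VCD_E2 and 38.7 in VCD_Low_E2, and at 3.39 to 13.7 in the other 10 libraries, including VCD_High_PBDE_E2 at 6.54.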
